A study of Mus with 10 samples.

Results

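The transcripts described are those of 9 integrin subunits that bind the extracellular matrix or hold lymphocytes in tissue: the alpha subunits *Itga1*, *Itga2*, *Itga4*, *Itga6*, *Itgae* and *Itgav* and the beta subunits *Itgb1*, *Itgb3* and *Itgb7*. They were chosen by gene symbol. All 9 are among the 24564 genes of the deposited count table, and all 9 were among the 11463 genes that passed a filter on low counts and were tested.

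RNA sequencing was performed on type 1 innate lymphoid cells (ILC1s), which are tissue-resident lymphocytes, sorted from the liver of C57BL/6 mice aged 6 to 8 weeks, male or female, with 5 libraries from *Ncr1*+/+ mice and 5 from *Ncr1*gfp/gfp mice. *Ncr1* encodes the activating receptor NKp46, and in *Ncr1*gfp/gfp mice the *gfp* sequence stands in its place, so the germline change is present in all cells and not in ILC1s alone. The sort took lineage-negative, NK1.1+, CD49a+ and CD49b- cells, with NKp46 as a further marker in *Ncr1*+/+ mice and GFP in *Ncr1*gfp/gfp mice. CD49a and CD49b are the proteins of *Itga1* and *Itga2*, so the gate fixed a range of surface protein for both in each genotype, and their transcript levels are those of cells already selected on the protein. The study calls the sequenced material RNA pools, without saying in the sources used here whether each library came from a single mouse or from several, and the p-values measure only the spread between these libraries.

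Integrins are pairs of an alpha and a beta subunit, and the pair decides which ligand is bound. Beta1 pairs with alpha1 and alpha2 to bind collagens, with alpha6 to bind laminin and with alpha4 to bind VCAM-1 and fibronectin. Beta7 pairs with alpha4 to bind MAdCAM-1, the addressin of gut vessels, and with alphaE (CD103) to bind E-cadherin on epithelial cells, while alphav pairs with beta3 to bind vitronectin and other proteins with an RGD motif. In the liver, CD49a marks resident ILC1s and CD49b marks conventional natural killer (NK) cells.

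The targeted gene and the identity of the cells were examined first. *Ncr1* was at 1913 to 2144 CPM (counts scaled to library size by TMM normalization) in *Ncr1*+/+ libraries and at 141 to 356 CPM in *Ncr1*gfp/gfp libraries. Of 9 ILC1 markers in the table, all were detected, and their summed level was 5621 to 5955 CPM in *Ncr1*+/+ and 3737 to 4001 CPM in *Ncr1*gfp/gfp libraries, or 3685 to 3872 and 3463 to 3716 CPM without *Ncr1*. These ILC1 markers were not steady: 7 of the 9, *Ncr1* included, had a log2 fold change below 0, beside 49.3% of all tested genes. The list was chosen with earlier results of these data known, so this count is a description. Beside *Ncr1*, the membrane protein genes *Tmem176a* and *Tmem176b* fell, with log2 fold changes of -1.16 and -1.22 (adjusted p = 5.35e-05 and 3.20e-07, QL test of edgeR). Both had no overlap between genotypes and passed in all 10 fits with 1 library left out. Total counts were between 15796253 and 22623133 per library. *Ncr1*+/+ replicate 1 stood apart on the first axis of a multidimensional scaling plot, at 1.95 where the other 9 libraries lay between -0.90 and 0.08, so the values without it are given beside the results that turn on it.

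The integrin transcripts of liver ILC1s spanned a wide range of levels and had a clear order. On the scale of CPM per kilobase of exon, which allows genes to be compared with each other, *Itgb7* had the highest level of the 9 in all 10 libraries, with a median of 271 in *Ncr1*+/+ and 269.8 in *Ncr1*gfp/gfp ILC1s. *Itgb1* and *Itga1* came next, with *Ncr1*+/+ medians of 146 and 133 CPM per kilobase. *Itgav*, *Itga4* and *Itgb3* formed a middle range, with *Ncr1*+/+ medians of 36.5, 29.5 and 20.4 CPM per kilobase, followed by *Itga2* at 9.26 and *Itga6* at 4.56 CPM per kilobase. *Itgae* was last in all 10 libraries and at or near the limit of detection, with medians of 0.125 and 0.273 CPM per kilobase in *Ncr1*+/+ and *Ncr1*gfp/gfp ILC1s. Neighbours in this order were not always apart: *Itgav* was above *Itga4* in 4 of 5 libraries of each genotype.

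**Figure D1:**
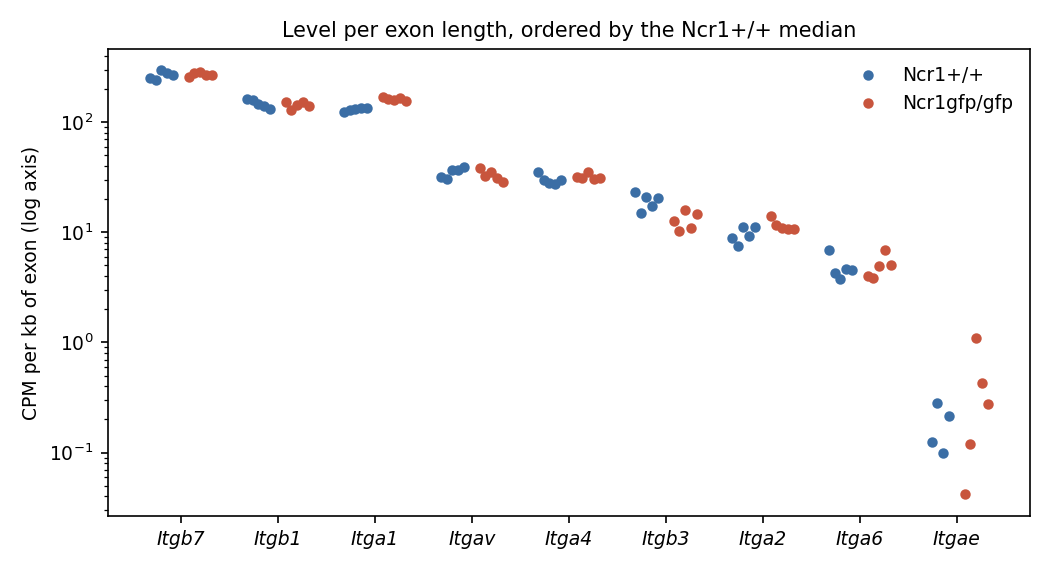
Level of each integrin transcript in CPM per kilobase of exon on a log axis, with 1 point per library, 5 for *Ncr1*+/+ (blue) and 5 for *Ncr1*gfp/gfp (red), ordered by the *Ncr1*+/+ median. *Itgb7* is highest in all 10 libraries and *Itgae* lowest, and the *Ncr1*+/+ library in which *Itgae* had 0 counts is not drawn on the log axis.

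The order of the medians differed between the genotypes at 1 place, given here as a description. The level of *Itga1* per kilobase was above that of *Itgb1* in 1 of 5 *Ncr1*+/+ libraries and in 5 of 5 *Ncr1*gfp/gfp libraries. The median of *Itgb3* was above that of *Itga2* in both genotypes, and *Itgb3* was the higher in 5 of 5 *Ncr1*+/+ libraries and in 3 of 5 *Ncr1*gfp/gfp libraries, where the ranges were 10.2 to 16.1 CPM per kilobase for *Itgb3* and 10.6 to 14.2 for *Itga2*.

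In the comparison of genotypes, *Itga1* rose and *Itgb3* fell in *Ncr1*gfp/gfp ILC1s, and the other 7 subunits did not pass the test. An adjusted p-value under 0.05 was reached by 2 of the 9, beside 1.35% of all tested genes (quasi-likelihood test of edgeR, QL, with p-values adjusted by Benjamini-Hochberg over the 11463 genes). When a fold change above 1.5 or below 0.7 was required as well, as in the methods of the study, 1 of the 9 was called, *Itgb3*, which was lower, beside 0.733% of all tested genes in either direction and 0.532% in the lower direction. The median log2 fold change of the 9 was 0.04, against 0.0027 over all tested genes. Of the 9, 6 were above 0 and 3 below 0, where 49.3% of all tested genes were below 0.

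**Figure D2:**
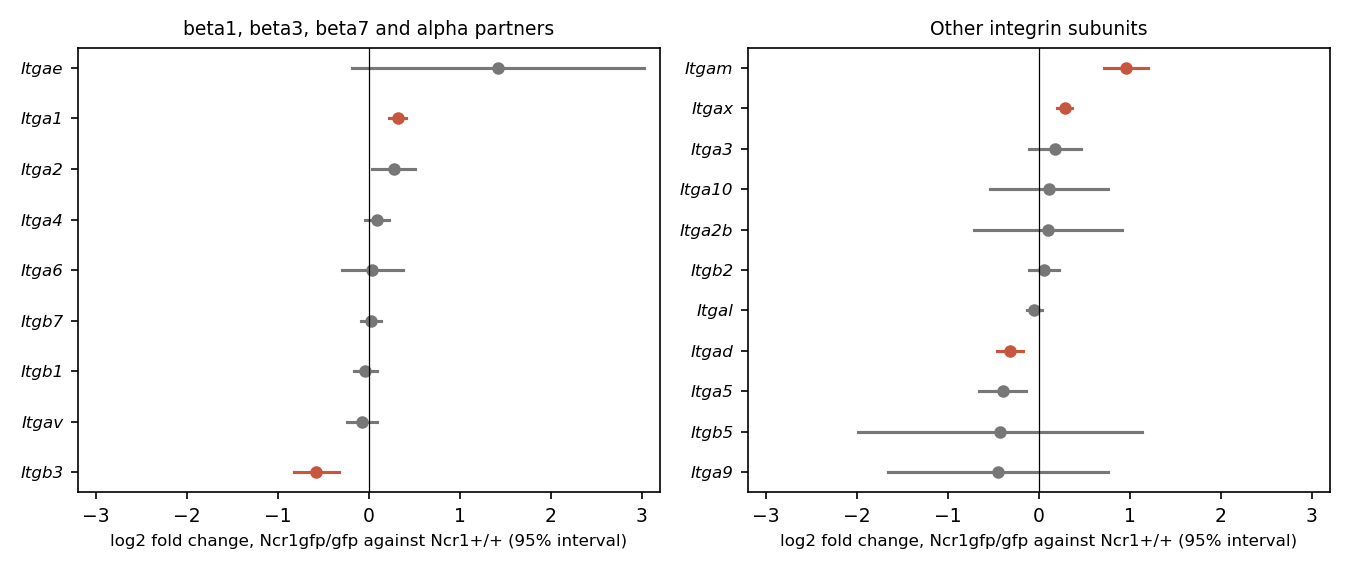
Log2 fold change of *Ncr1*gfp/gfp against *Ncr1*+/+ ILC1s with its 95% interval for the 9 subunits (left) and the 11 other integrin subunits tested (right), with genes at an adjusted p-value under 0.05 in red. On the left *Itga1* lies above 0 at 0.32 and *Itgb3* below 0 at -0.58, and *Itgae* has the widest interval.

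Among the collagen receptors, *Itga1*, the alpha chain of the residency integrin alpha1beta1, is listed on chromosome 13 between 115748289 and 115892172, on the minus strand. The deposited table names no genome build for its coordinates, and they are not those of GRCm38. The level of *Itga1* was 732, 765, 795, 805 and 799.7 CPM in *Ncr1*+/+ replicates 1 to 5. In *Ncr1*gfp/gfp replicates 1 to 5 it was 1012, 974, 945, 998 and 928 CPM. Every *Ncr1*gfp/gfp library was above every *Ncr1*+/+ library, with *Ncr1*+/+ replicate 4 the highest of its genotype and *Ncr1*gfp/gfp replicate 5 the lowest. Such a lack of overlap was found for 1 of the 9 subunits, in the higher direction, beside 3.11% of all tested genes in either direction, 1.28% higher and 1.82% lower.

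The mean level of *Itga1* was 779 ± 30.4 CPM in *Ncr1*+/+ and 971 ± 35.1 CPM in *Ncr1*gfp/gfp ILC1s (SD, n = 5 each), so that the *Ncr1*gfp/gfp mean was 125% of the *Ncr1*+/+ mean. As a log2 fold change, the difference was 0.32 (standard error 0.04, 95% interval 0.23 to 0.41, adjusted p = 0.000481, edgeR QL test). The difference in CPM gave p = 0.00794 in a two-sided exact permutation test, the smallest that 5 libraries against 5 allow. The whole interval lay under 0.58, the log2 of the fold limit of 1.5, so *Itga1* was a small and narrowly measured increase. In the 10 fits with 1 library left out, it lay between 0.29 and 0.33 and the largest adjusted p-value was 0.00205 (edgeR QL test). *Pelo*, a gene for a ribosome rescue factor, lies inside *Itga1* on the same strand of the table and had 46.3 to 67.8 CPM, with a log2 fold change of 0.18 (adjusted p = 0.51, edgeR QL test).

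*Itga2*, which encodes CD49b, lies 26039 bases from *Itga1* on the same strand. The level of *Itga2* was 37.1, 31.7, 47.6, 39.1 and 47.2 CPM in *Ncr1*+/+ replicates 1 to 5 and 59.9, 48.9, 45.7, 44.9 and 45.6 CPM in *Ncr1*gfp/gfp replicates 1 to 5. The genotypes overlapped, with *Ncr1*+/+ replicates 3 and 5 above 3 of the *Ncr1*gfp/gfp libraries, and *Ncr1*gfp/gfp replicate 1 was the highest of all. The fitted log2 fold change was 0.27 (95% interval 0.04 to 0.51, adjusted p = 0.331, edgeR QL test). The ratio of *Itga1* to *Itga2*, taken per kilobase within each library, was 11.8 to 17.0 in *Ncr1*+/+ and 11.9 to 15.7 in *Ncr1*gfp/gfp ILC1s. The ranges overlapped, and in each of these CD49a+ CD49b- populations the transcript of *Itga1* was far above that of *Itga2*.

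Markers of other lymphocytes were examined beside *Itga1* and did not move as a group. Of 8 T cell marker genes in the table, 5 were tested and 3 rose (*Cd3e*, *Cd3g* and *Cd8a*). An adjusted p-value under 0.05 was reached by 1.35% of all tested genes, 0.567% higher and 0.785% lower. *Cd8a* passed in 6 of 10 fits with 1 library left out (not without *Ncr1*+/+ replicates 2 or 4 or *Ncr1*gfp/gfp replicates 3 or 4, largest adjusted p 0.0956). The 8 genes summed to 461 to 579 CPM in *Ncr1*+/+ and 633 to 835 CPM in *Ncr1*gfp/gfp libraries, of which *Cd3g* held most, and without *Cd3g* it was 9.14 to 26.6 and 36.8 to 100.5 CPM, with no marker at 0 in all libraries. Of 9 NK cell markers 7 were tested and *Itgam* alone rose. The summed level was 397 to 434 CPM in *Ncr1*+/+ and 434 to 495 CPM in *Ncr1*gfp/gfp libraries. Without *Itgam* it overlapped at 348 to 391 and 351 to 403 CPM. *Prf1* held most of that remainder, with means of 343 CPM in *Ncr1*+/+ and 344 CPM in *Ncr1*gfp/gfp libraries. *Klra4* was at 0 in all libraries, and *Eomes*, the factor that sets NK cells apart from ILC1s, had a mean of 7.10 CPM in *Ncr1*+/+ and 10.2 CPM in *Ncr1*gfp/gfp libraries. Of 7 markers of group 2 or group 3 ILCs 3 were tested and *Kit* fell, though it passed in just 2 of 10 fits with 1 library left out (those without *Ncr1*+/+ replicate 2 or *Ncr1*gfp/gfp replicate 1, largest adjusted p 0.105), with a summed level of 194 to 216 CPM in *Ncr1*+/+ and 149 to 195 CPM in *Ncr1*gfp/gfp libraries and *Il22* at 0 in all. Markers of B cells, hepatocytes, sinusoidal endothelial cells and stellate cells overlapped between the genotypes. Their summed *Ncr1*+/+ levels were 0.561 to 5.99, 135 to 180.0, 113 to 148 and 0.200 to 2.13 CPM. The *Ncr1*gfp/gfp levels were 2.49 to 4.98, 123 to 204, 128 to 152 and 0.594 to 3.99 CPM. *Trf* held most of the hepatocyte sum, with means of 138 CPM in *Ncr1*+/+ and 135 CPM in *Ncr1*gfp/gfp libraries. *Pecam1* held most of the endothelial sum, with means of 130 and 138 CPM. The part of these cell types in the level of *Itga1* was not tested. In bulk RNA a change in the share of cells that express a gene and a change in RNA per cell cannot be told apart.

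**Figure D3:**
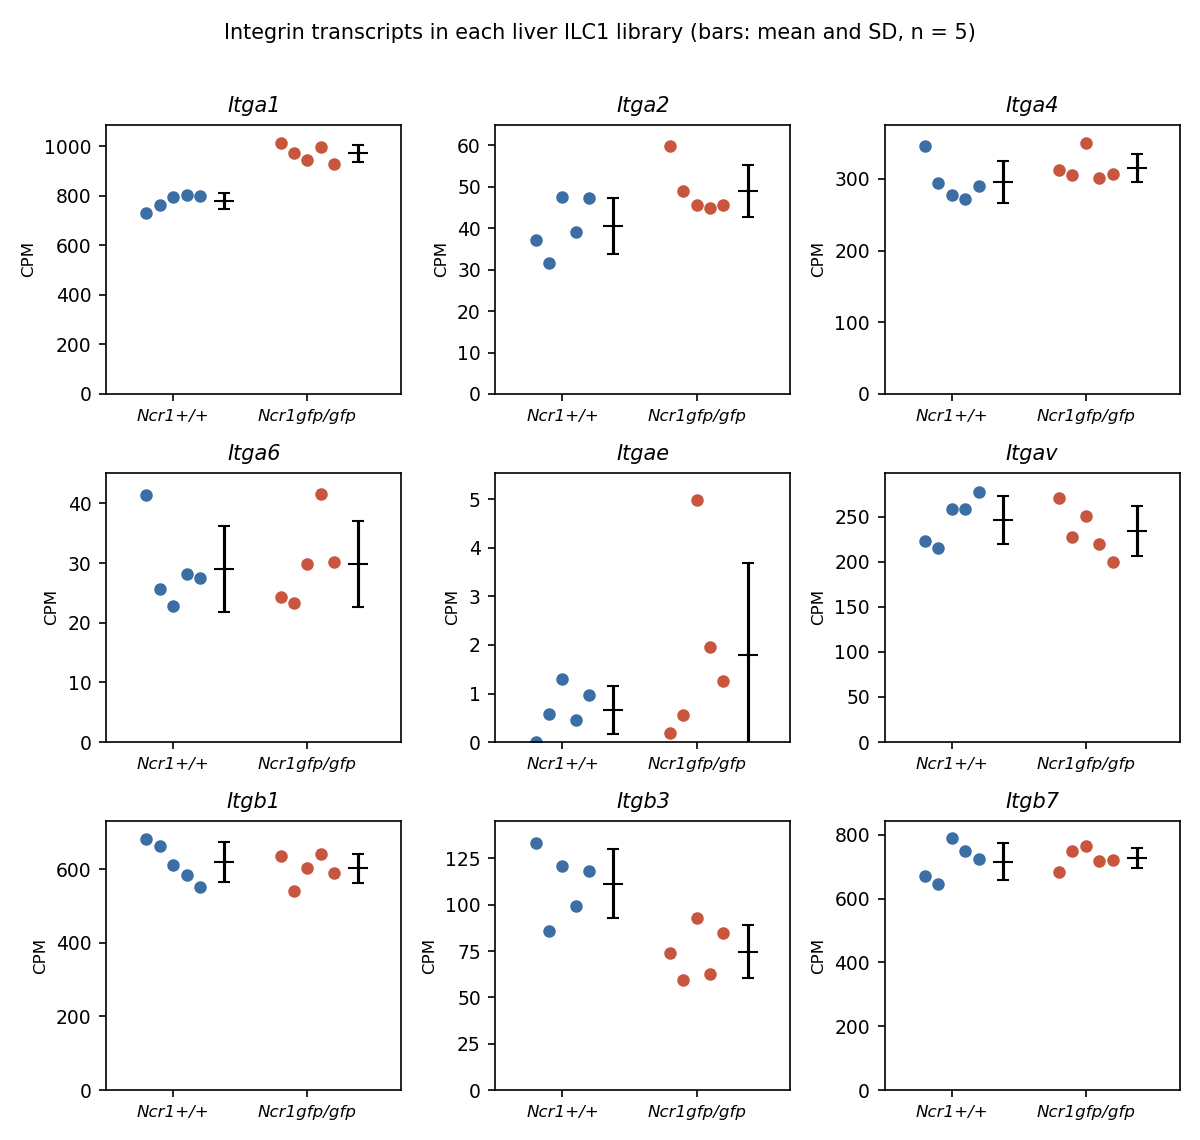
CPM of each of the 9 integrin subunits in each library, in the order of replicates 1 to 5, with the mean and SD of 5 libraries beside them; each axis starts at 0. *Itga1* is higher in all 5 *Ncr1*gfp/gfp libraries than in any *Ncr1*+/+ library, *Itgb3* is lower in *Ncr1*gfp/gfp with overlap, and *Itgae* is high in *Ncr1*gfp/gfp replicate 3.

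*Itgb3*, the beta chain of the vitronectin receptor alphavbeta3, is listed on chromosome 11 between 104469314 and 104531785, on the plus strand. The level of *Itgb3* was 133, 85.6, 121, 99.4 and 118 CPM in *Ncr1*+/+ replicates 1 to 5. In *Ncr1*gfp/gfp replicates 1 to 5 it was 73.7, 59.1, 93.0, 62.8 and 84.6 CPM. The genotypes overlapped at a single point, since *Ncr1*gfp/gfp replicate 3 was above *Ncr1*+/+ replicate 2, and the other 4 *Ncr1*gfp/gfp libraries were below all *Ncr1*+/+ libraries.

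The mean level of *Itgb3* was 111 ± 18.8 CPM in *Ncr1*+/+ and 74.6 ± 14.3 CPM in *Ncr1*gfp/gfp ILC1s (SD, n = 5 each), so that 67.0% of the *Ncr1*+/+ mean remained. As a log2 fold change, the difference was -0.58 (standard error 0.12, 95% interval -0.83 to -0.33, adjusted p = 0.0141, edgeR QL test). The difference in CPM gave p = 0.0159 in a two-sided exact permutation test. The interval contained -0.51, the log2 of the fold limit of 0.7. Leaving out 1 library at a time ended the call in 4 of 10 fits. The adjusted p-value became 0.0546 without *Ncr1*+/+ replicate 1, 0.0522 without *Ncr1*+/+ replicate 3 and 0.0519 without *Ncr1*gfp/gfp replicate 4 (edgeR QL test), and without *Ncr1*gfp/gfp replicate 2 the log2 fold change was -0.50, inside the fold limit. The direction held in all 10 fits, with log2 fold changes from -0.67 to -0.50.

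*Itgb3* is a major integrin chain of platelets, where it pairs with the product of *Itga2b*. *Itga2b* was at a mean of 3.05 CPM in *Ncr1*+/+ and 3.28 CPM in *Ncr1*gfp/gfp ILC1s. The summed level of 9 platelet or megakaryocyte markers was 1.46 to 6.55 CPM in *Ncr1*+/+ and 1.65 to 6.56 CPM in *Ncr1*gfp/gfp libraries, or 0 to 2.20 and 0 to 1.60 CPM without *Itga2b*, with *Treml1* at 0 in all 10. The platelet markers were near 0 and overlapped between the genotypes, and *Itgb3* was between 59.1 and 133 CPM in the same libraries. The 9 Kupffer cell or monocyte markers summed to 10.6 to 74.2 CPM in *Ncr1*+/+ and 7.31 to 51.7 CPM in *Ncr1*gfp/gfp libraries, and none of the 8 tested passed. The part of platelets, Kupffer cells or monocytes in the level of *Itgb3* was not tested.

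*Itgav*, the alpha chain that pairs with beta3, did not pass the test. The level of *Itgav* was 223, 215, 258, 258 and 278 CPM in *Ncr1*+/+ replicates 1 to 5 and 271, 227, 251, 219 and 200.2 CPM in *Ncr1*gfp/gfp replicates 1 to 5. The ranges overlapped, with the highest value in *Ncr1*+/+ replicate 5 and the lowest in *Ncr1*gfp/gfp replicate 5. The fitted log2 fold change was -0.08 (95% interval -0.24 to 0.09, adjusted p = 0.815, edgeR QL test). The ratio of *Itgav* to *Itgb3* per kilobase was 1.37 to 2.13 in *Ncr1*+/+ and 1.94 to 3.15 in *Ncr1*gfp/gfp libraries, so that *Itgav* was above its beta partner in every library of both genotypes.

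The remaining beta chains had levels close to each other in the 2 genotypes. *Itgb1*, the common beta chain of the collagen and laminin receptors, was at 682, 664, 611, 584 and 552 CPM in *Ncr1*+/+ and 634, 540.4, 604, 640.0 and 591 CPM in *Ncr1*gfp/gfp replicates 1 to 5. *Itgb1* had a log2 fold change of -0.04 (95% interval -0.17 to 0.09, adjusted p = 0.878, edgeR QL test). *Ncr1*gfp/gfp libraries lay inside or just below the *Ncr1*+/+ range. *Itgb7*, the partner of alpha4 and alphaE, was at 670.3, 646, 788, 749.7 and 724 CPM in *Ncr1*+/+ and 684, 749.8, 764, 719 and 721 CPM in *Ncr1*gfp/gfp replicates 1 to 5. For *Itgb7*, the genotypes differed by a log2 fold change of 0.02 (95% interval -0.09 to 0.14, adjusted p = 0.929, edgeR QL test). All 5 *Ncr1*gfp/gfp values of *Itgb7* lay within the *Ncr1*+/+ range.

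*Itga4*, the alpha chain shared by the VCAM-1 receptor alpha4beta1 and the MAdCAM-1 receptor alpha4beta7, was at 346, 294, 278, 271 and 290.4 CPM in *Ncr1*+/+ and 312, 306, 350.0, 301 and 306 CPM in *Ncr1*gfp/gfp replicates 1 to 5. *Ncr1*+/+ replicate 1 and *Ncr1*gfp/gfp replicate 3 were the highest of their genotypes, and the ranges overlapped. *Itga4* had a log2 fold change of 0.09 (95% interval -0.05 to 0.23, adjusted p = 0.681, edgeR QL test). *Itga6*, the laminin receptor chain, was at 41.4, 25.6, 22.8, 28.1 and 27.4 CPM in *Ncr1*+/+ and 24.3, 23.3, 29.9, 41.6 and 30.2 CPM in *Ncr1*gfp/gfp replicates 1 to 5. Each genotype held a single *Itga6* value well above its others, in *Ncr1*+/+ replicate 1 and *Ncr1*gfp/gfp replicate 4. For *Itga6*, the genotypes differed by a log2 fold change of 0.04 (95% interval -0.30 to 0.37, adjusted p = 0.961, edgeR QL test), and its sign turned in 3 of 10 fits with 1 library left out, ranging from -0.11 to 0.20.

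*Itgae* encodes CD103, the residency integrin of intraepithelial lymphocytes. Its raw counts were 0, 13, 26, 9 and 18 in the *Ncr1*+/+ libraries, taken in replicate order, and 3, 12, 94, 33 and 21 in the *Ncr1*gfp/gfp libraries. *Ncr1*gfp/gfp replicate 3 held the most counts, and the genotypes overlapped. The scaled level of *Itgae* was 0.661 ± 0.499 CPM in *Ncr1*+/+ and 1.79 ± 1.91 CPM in *Ncr1*gfp/gfp ILC1s (SD, n = 5 each), where 3 counts correspond to between 0.132 and 0.1905 CPM. As a log2 fold change, the difference was 1.42 (95% interval -0.19 to 3.03, adjusted p = 0.515, edgeR QL test) and was 0.57 without *Ncr1*gfp/gfp replicate 3. The interval was wide, and the values spread widely between libraries of a genotype. The T cell markers other than *Cd3g* were also highest in *Ncr1*gfp/gfp replicate 3, at 100.5 CPM in sum. Replicate 4 followed at 71.7 CPM and was second for *Itgae* as well. In *Ncr1*gfp/gfp replicates 1, 2 and 5 these markers were at 36.8, 41.7 and 38.5 CPM, above the *Ncr1*+/+ range of 9.14 to 26.6 CPM. *Itgae* was at 0.19, 0.548 and 1.25 CPM in those libraries, within the *Ncr1*+/+ range of 0 to 1.30 CPM. The part of T cells in the counts of *Itgae* was not tested. *Haspin*, a kinase gene that lies inside *Itgae* on the opposite strand, had 12.4 to 19.3 CPM, and since the library kit does not mark strand, reads of the pair where they overlap cannot be told apart.

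Levels were also set against each other within each library, for the partners *Itga1* and *Itgb1* and between beta chains, which are not partners. The ratio of *Itga1* to *Itgb1* per kilobase was 0.753, 0.808, 0.912, 0.966 and 1.02 across the *Ncr1*+/+ libraries in replicate order, and 1.12, 1.26, 1.10, 1.09 and 1.10 across the *Ncr1*gfp/gfp libraries, with no overlap. The ratio of *Itgb7* to *Itgb3* was 10.9 to 16.3 in *Ncr1*+/+ and 17.8 to 27.4 in *Ncr1*gfp/gfp libraries, again with no overlap. The ratio of *Itgb1* to *Itgb3* overlapped, at 6.45 to 10.7 and 8.95 to 14.1. These ratios carry the same counts as the levels above and are given as a description, with no test.

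*Itga1* held the largest share of the 6 alpha chains per kilobase in every library, at 59.7% to 63.9% in *Ncr1*+/+ and 64.2% to 67.7% in *Ncr1*gfp/gfp ILC1s. The share of *Itgav* was 15.2% to 18.0% in *Ncr1*+/+ and 12.3% to 14.9% in *Ncr1*gfp/gfp libraries, although its CPM overlapped, as a share falls when another member of the sum is higher. Among the 3 beta chains, *Itgb3* held 3.57% to 5.28% in *Ncr1*+/+ and 2.44% to 3.61% in *Ncr1*gfp/gfp ILC1s, with a small overlap.

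**Figure D4:**
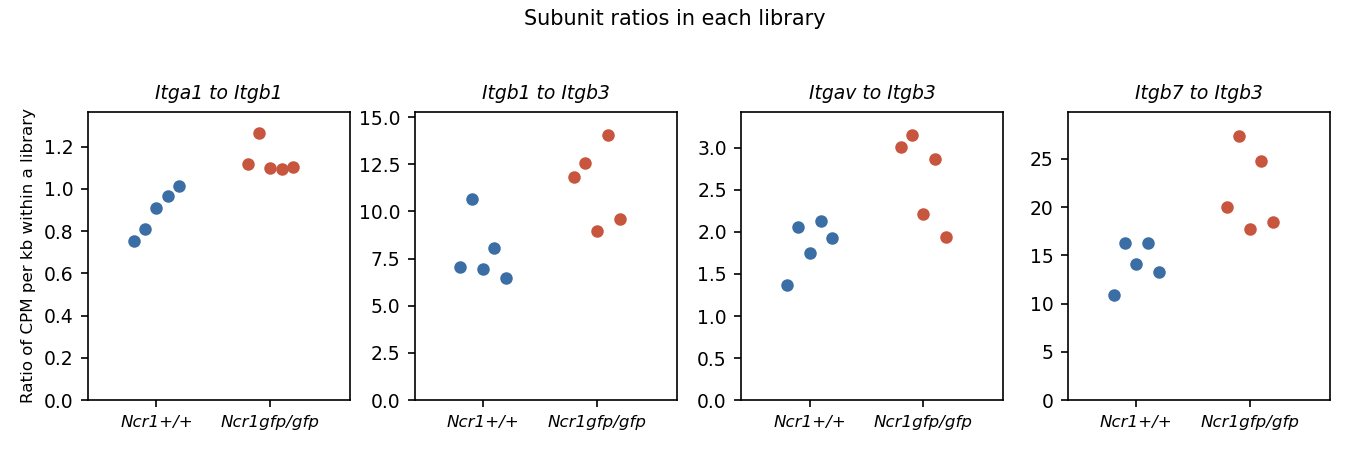
Ratio of the CPM per kilobase of the named subunits within each library, in the order of replicates 1 to 5, for *Ncr1*+/+ (blue) and *Ncr1*gfp/gfp (red) ILC1s; each axis starts at 0. The ratios of *Itga1* to *Itgb1* and of *Itgb7* to *Itgb3* do not overlap between the genotypes, and the ratios of *Itgb1* and of *Itgav* to *Itgb3* do.

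The subunits also varied among themselves within a genotype. Over the 10 libraries, with log2 CPM centred within genotype, the strongest relation among the 36 pairs was between *Itga2* and *Itgav* (Pearson's r = 0.80, Spearman's rho = 0.77, r = 0.73 without the 2 farthest libraries). *Itga1* and *Itga4* varied in opposite directions (r = -0.72, rho = -0.56), as did *Itgb1* and *Itgb7* (r = -0.63, rho = -0.64). The ratio of *Itgb1* to *Itgb7* per kilobase was 0.649 and 0.655 in *Ncr1*+/+ replicates 1 and 2 and 0.486 to 0.496 in *Ncr1*+/+ replicates 3 to 5. In *Ncr1*gfp/gfp replicates 1 to 5 it was 0.591, 0.460, 0.504, 0.568 and 0.522. *Itgav* and its partner *Itgb3* had r = 0.21 and rho = 0.13. Both genes of a pair come from the same libraries and the same scaling, and these values are descriptions.

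Beyond the members, the genes that varied most like *Itga1* within genotype, among 8605 genes compared over the 10 libraries, were *Rgs3* (r = 0.93, rho = 0.79, r = 0.84 without the 2 farthest libraries), *Nlrc5* (r = 0.92, rho = 0.88) and *Klhl18* (r = 0.92, rho = 0.90). For *Itgb3* they were *Hvcn1*, which encodes a proton channel (r = 0.97, rho = 0.96, r = 0.95 without the 2 farthest libraries), *Selplg*, which encodes the selectin ligand PSGL-1 (r = 0.93, rho = 0.95), and *Atp13a2* (r = 0.92, rho = 0.94). None of these 6 genes passed the test between genotypes. They were picked as the highest of 8605 correlations over 10 libraries, so the values are descriptions, with no test.

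The other integrin subunits give the setting of these values. Of these 18 genes 11 were tested. At an adjusted p-value under 0.05 *Itgam* and *Itgax* rose and *Itgad* fell, beside 1.35% of all tested genes in either direction. *Itgam*, the alpha chain of CD11b, had 49.4 ± 6.50 CPM in *Ncr1*+/+ and 96.0 ± 18.7 CPM in *Ncr1*gfp/gfp ILC1s (SD, n = 5 each; log2 fold change 0.96, adjusted p = 5.59e-05, edgeR QL test) and was the single one past the fold limit. *Itgax*, which encodes CD11c, had a log2 fold change of 0.28 and *Itgad*, which encodes CD11d, one of -0.32 (adjusted p = 0.000539 and 0.0191, edgeR QL test). The leukocyte chains *Itgal* and *Itgb2*, which form LFA-1, had log2 fold changes of -0.05 and 0.05, and *Itga5*, the fibronectin receptor chain, one of -0.40, and none of these passed (adjusted p = 0.702, 0.879 and 0.143, edgeR QL test). With 1 library left out, *Itgad* kept an adjusted p-value under 0.05 in 6 of 10 fits (not without *Ncr1*+/+ replicates 1 or 5 or *Ncr1*gfp/gfp replicates 4 or 5, largest 0.0654), and *Itgam* and *Itgax* in all 10. The median log2 fold change of the 11 was 0.05.

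Proteins that switch integrins on or link them to actin were examined next. Of 39 genes for activators, adaptors and partner tetraspanins 32 were tested, and 1 had an adjusted p-value under 0.05, beside 1.35% of all tested genes. Of the 32, 22 had a log2 fold change below 0, beside 49.3% of all tested genes, and the median of the 32 was -0.06. *Cd82*, a tetraspanin that associates with integrins, fell from 488 ± 23.1 to 421 ± 18.6 CPM (SD, n = 5 each; log2 fold change -0.21, adjusted p = 0.0323, edgeR QL test), with all 5 *Ncr1*gfp/gfp libraries below all *Ncr1*+/+ libraries, and it was the single gene of the list to pass. With 1 library left out, *Cd82* passed in 3 of 10 fits, those without *Ncr1*+/+ replicates 2 or 5 or *Ncr1*gfp/gfp replicate 4, and its largest adjusted p-value was 0.103 (edgeR QL test). *Tln1*, which encodes the talin that activates integrins, had 1991 ± 124 CPM in *Ncr1*+/+ and 1921 ± 70.5 CPM in *Ncr1*gfp/gfp ILC1s, a log2 fold change of -0.05 (95% interval -0.14 to 0.04). The focal adhesion kinase relative *Ptk2b* and the filamin gene *Flna* had log2 fold changes of -0.01 (95% interval -0.10 to 0.08) and -0.06 (95% interval -0.20 to 0.08). *Tln1*, *Ptk2b* and *Flna* were the highest of the genes that did not pass (adjusted p = 0.754, 0.966 and 0.826, edgeR QL test).

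**Figure D5:**
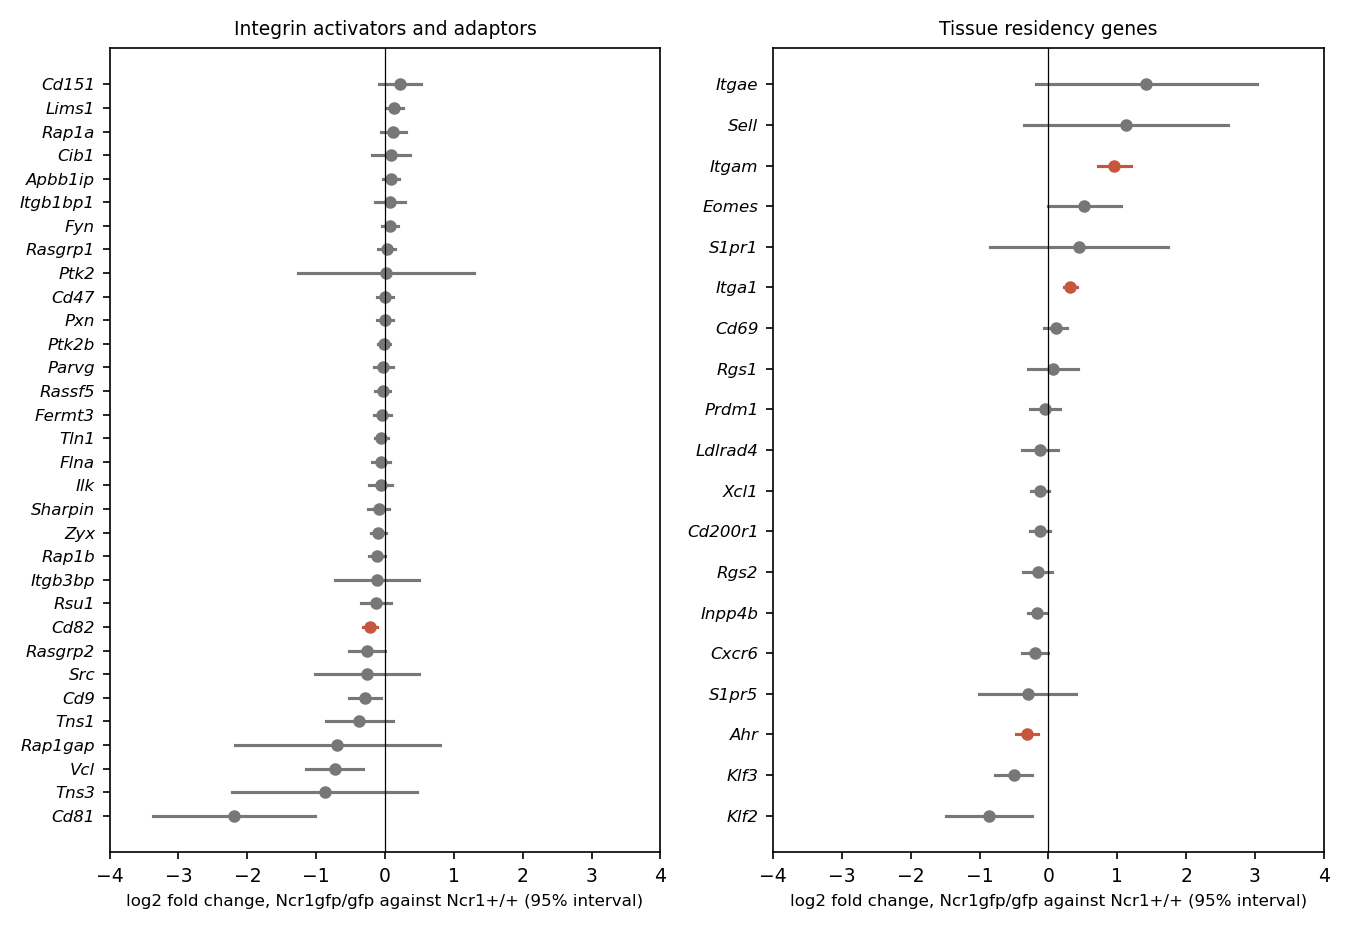
Log2 fold change of *Ncr1*gfp/gfp against *Ncr1*+/+ ILC1s with its 95% interval for the 32 tested integrin activators and adaptors (left) and the 19 tested genes linked to tissue residency (right), with genes at an adjusted p-value under 0.05 in red. On the left *Cd82* passes at -0.21, and on the right *Itgam* and *Itga1* pass above 0 and *Ahr* below 0.

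Of 26 genes for ligands of these integrins 5 had enough counts to be tested. Of these *Cdh1*, which encodes E-cadherin, the ligand of alphaEbeta7, rose. An adjusted p-value under 0.05 was reached by 1.35% of all tested genes. The level of *Cdh1* was 49.9, 45.4, 48.4, 63.7 and 49.03 CPM in *Ncr1*+/+ and 111, 102, 92.4, 101 and 89.5 CPM in *Ncr1*gfp/gfp replicates 1 to 5. The genotypes did not overlap, and the log2 fold change was 0.95, with a standard error of 0.09 (adjusted p = 2.35e-06, edgeR QL test). *Tgfb1*, *Pecam1* and *Lamc1* had log2 fold changes of -0.06, 0.09 and 0.26 and did not pass (adjusted p = 0.798, 0.735 and 0.443, edgeR QL test).

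Genes that accompany *Itga1* and *Itgae* in resident lymphocytes were mixed in direction. Of 13 genes reported to be raised in resident lymphocytes 12 were tested, *Itga1* and *Itgae* included. At an adjusted p-value under 0.05 *Itga1* rose and *Ahr* fell, beside 1.35% of all tested genes. Of the 12, 8 had a log2 fold change below 0, beside 49.3% of all tested genes. The median of the 12 was -0.12. *Ahr*, which encodes the aryl hydrocarbon receptor, had 123 ± 10.8 CPM in *Ncr1*+/+ and 99.0 ± 9.56 CPM in *Ncr1*gfp/gfp ILC1s (SD, n = 5 each; log2 fold change -0.31, adjusted p = 0.0482, edgeR QL test). *Ahr* passed in 3 of 10 fits with 1 library left out, those without *Ncr1*+/+ replicate 2 or *Ncr1*gfp/gfp replicates 3 or 5, and its largest adjusted p-value was 0.132 (edgeR QL test). *Rgs1*, *Xcl1* and *Inpp4b*, the highest of those that did not pass, had log2 fold changes of 0.06, -0.12 and -0.16 (adjusted p = 0.941, 0.496 and 0.346, edgeR QL test).

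Of 8 genes reported to be lowered in resident lymphocytes 7 were tested. Of these *Itgam* rose at an adjusted p-value under 0.05, beside 1.35% of all tested genes. The transcription factor genes *Klf2* and *Klf3* had log2 fold changes of -0.87 and -0.51 and did not pass (adjusted p = 0.207 and 0.0614, edgeR QL test), nor did *Eomes*, at 0.52 (adjusted p = 0.455, edgeR QL test). *Klf2* was at 82.6 and 80.7 CPM in *Ncr1*+/+ replicates 1 and 2 and at 18.6 to 30.4 CPM in the other 8 libraries, and these were the same 2 libraries in which *Itgb1* was highest and *Itgb7* lowest.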

How the data were processed

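RNA was sequenced from liver ILC1s (5 *Ncr1*+/+ and 5 *Ncr1*gfp/gfp libraries, grouped by their labels), from 2 ng of total RNA per library, with 51 cycles from a single end. The authors used Trimmomatic 0.38 and FASTP 0.19.4 for trimming, STAR 020201 for mapping to the mouse genome, and HTSeq 0.6.0 with its defaults for counting. They deposited these counts per gene without normalization, and a gene that shares sequence or position with another can lose reads in such counting. From the counts, filterByExpr kept 11463 of 24564 genes. TMM scaling and the quasi-likelihood (QL) test of edgeR 4.0.16 (R 4.3.3) followed, with Benjamini-Hochberg adjustment over all tested genes. To be called, a gene needed a fold change above 1.5 or below 0.7 beside an adjusted p-value under 0.05. CPM were divided by the table's exon length for levels between genes. Intervals are 95% and use the fitted standard error. Single values were compared with two-sided exact permutation tests. The script was tested on simulated data.

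Total counts were 17996935 to 22623133 in *Ncr1*+/+ and 15796253 to 21975879 in *Ncr1*gfp/gfp libraries, where 3 counts equal 0.132 to 0.1905 CPM. No 2 libraries of a genotype agreed within sampling noise. Alternatives were DESeq2 1.42.0, voom of limma 3.58.1, edgeR's likelihood ratio test, other scalings, filters and thresholds, a replicate block, and leaving out each library. The 9 genes and all lists were chosen with earlier results of these data known. The genes named were the 9 subunits, genes of the integrin, ligand and residency lists with an adjusted p-value under 0.05, the 3 highest other genes of each list, and the 3 genes most like each subunit that passed, among genes with a mean log2 CPM above 3. *Vcl*, *Cd81*, genes overlapping a subunit and single cell type markers were named after their values were seen.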

Additional observations from a re-analysis of the deposited data

Results flagged for a closer look

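Within a genotype of 5 libraries, 3 values lay far from the other 4 by Dixon's criterion. *Ncr1*gfp/gfp replicate 1 had 59.9 CPM of *Itga2*, where the next library had 48.9 CPM. *Ncr1*gfp/gfp replicate 3 had 350.0 CPM of *Itga4*, where the next had 312 CPM. *Ncr1*+/+ replicate 1 had 41.4 CPM of *Itga6*, where the next had 28.1 CPM. Over the 9 subunits and 2 genotypes 18 groups of libraries were examined, and chance flags about 1 in 20 such groups, or 0.9 here. None of the 3 genes passed the test between genotypes with all libraries or with any library left out.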

How the results depend on the processing

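With the quasi-likelihood test 84 genes were called, and 128 with DESeq2, 138 with edgeR's likelihood ratio test, 131 with no filter, 155 with no fold limit, 23 with an absolute log2 fold change above 1, and 60 to 98 with a library left out. Of the 9 subunits 1 was called, and 2 with no fold limit, 0 with voom, 0 with an absolute log2 fold change above 1, and 0 to 1 with a library left out. Under voom the log2 fold change of *Itgb3* was -0.50, inside the fold limit, at an adjusted p of 0.0212. Of the other integrin subunits 3 passed with no fold limit and 0 with an absolute log2 fold change above 1, against *Itgam* alone with the thresholds used and in all 10 fits without a library. Of the activators and adaptors 0 were called (5 of 32 had an unadjusted p under 0.05, beside 11.4% of all tested genes), and 2 with DESeq2, 2 with the likelihood ratio test, 2 with no filter, 1 with voom, 1 with no fold limit and 0 to 1 with a library left out. These were *Cd81* (log2 fold change -2.20, adjusted p = 0.0582 in the quasi-likelihood test, at 0.137 to 1.85 CPM in *Ncr1*gfp/gfp libraries) and *Vcl* (-0.73, adjusted p = 0.078), except that *Cd82* was the gene with no fold limit. The causes were not tested.

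With a library left out, the log2 fold change ranged from 0.29 to 0.33 for *Itga1*, 0.19 to 0.34 for *Itga2*, 0.05 to 0.15 for *Itga4*, -0.11 to 0.20 for *Itga6*, 0.57 to 1.81 for *Itgae*, -0.13 to -0.03 for *Itgav*, -0.08 to -0.0033 for *Itgb1*, -0.67 to -0.50 for *Itgb3* and -0.012 to 0.060 for *Itgb7*. The sign turned for *Itga6* without *Ncr1*+/+ replicate 2 (-0.0064) or 3 (-0.04) or *Ncr1*gfp/gfp replicate 4 (-0.11), and for *Itgb7* without *Ncr1*+/+ replicate 2 (-0.012). In the 9 fits with all libraries, the adjusted p-value was under 0.05 in 9 of 9 for *Itga1* and for *Itgb3*. Exact permutation tests of CPM, added after seeing the data, gave at most p = 0.00794 for *Itga1* and 0.0317 for *Itgb3* without a library. *Itgae* had no value under a filter of 10 counts in every library. Other scalings moved the median of all genes by at most 0.0056.

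Replicate numbers did not pair the libraries: same-numbered libraries correlated at -0.02 to 0.04 after centring, and 0 of 5 numbers matched best. With the replicate block 87 genes were called, and *Itga1* and *Itgb3* had log2 fold changes of 0.32 and -0.58 (adjusted p = 0.00243 and 0.00137). The block changed no call among the 9 subunits. *Itgae* had 0 to 94 counts per library, where 1 library moved its log2 fold change from 1.42 to 0.57.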
